A study of Mus musculus with 14 samples.

Results

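Genes that belong to other blood lineages were examined in the chromatin of regulatory T (Treg) cells, in which such genes are usually closed. The list holds 35 genes, of which 10 are B cell genes, 20 are myeloid genes and 5 are genes of hematopoietic progenitors. A window, the stretch of sequence around one peak summit in which reads were counted, was given to a gene if that gene had the nearest protein-coding start site to the centre of the window and lay within 50 kb of it. By this rule 268 of 240778 windows belonged to 30 of the 35 genes, with 78 windows at B cell genes, 121 at myeloid genes and 69 at progenitor genes. No window was assigned to Ms4a1, Csf1r, Fcgr3, S100a8 or Tlr4, and for these 5 genes no level can be given.

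Chromatin accessibility was measured by ATAC-seq, in which a transposase cuts open DNA more often than packed DNA, in Treg cells of spleen and lymph nodes. All mice carried Foxp3AID, a knock-in allele that fuses Foxp3 to an auxin-inducible degron together with a ZsGreen reporter and Cre, and all received daily 5-ph-IAA, the ligand of the degron system, for 3 or 7 days. The genotype for degradation, R26TIR1(F74G), carried the TIR1(F74G) receptor in the Rosa26 locus behind a loxP-flanked stop under the CAG promoter, so that Foxp3 is degraded in cells in which the Foxp3-driven Cre has acted. Foxp3AID R26WT mice lacked the receptor, received the same ligand and served as controls. There were 14 libraries, 4 of each genotype on day 3 and 3 of each genotype on day 7. By the study's methods, the mice were adults, the Foxp3AID line had been backcrossed to C57BL/6, and after enrichment of CD4+ T cells the sort gate was CD4+TCRβ+ZsGreen+ in R26WT mice and CD4+TCRβ+ZsGreen+mCherry+ in R26TIR1(F74G) mice, so genotype and gate cannot be told apart. The labels give neither sex nor activation state, whereas the study describes heterozygous females and cells sorted as resting or activated on day 7. The headers of the count table name a separate mouse for each library.

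B cells, myeloid cells and T cells arise from shared progenitors, and each lineage is set by its own transcription factors, such as Pax5 and Ebf1 in B cells, Spi1 (PU.1) and the C/EBP factors in myeloid cells, and Gata2, Tal1 and Gata1 in progenitors and erythroid cells. Genes of the lineages not taken are commonly silent in mature T cells, with little open chromatin at their start sites. In a sorted population, open chromatin at such a gene can come from the sorted cells or from a few cells of another type, and in bulk libraries fewer cells of a type and less accessibility per cell cannot be told apart. Values are given as CPM, the count in a window scaled to a common library total, with that total adjusted by TMM normalization.

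Counts in windows ranged from 5653289 to 20184487 per library, with the lowest totals in one R26TIR1(F74G) library on day 3 and one R26WT library on day 7. The sorted population carried T cell chromatin, since all 8 T cell markers examined had a window at the start site with a median of 11.4 CPM, and 4 of 6 Treg markers had one with a median of 13.6 CPM. The start-site window of the Treg marker Il2rb was at 0.841 CPM, below the lowest of the listed genes, 0.855 CPM. All windows of Il2rb summed to 84.4 CPM, so a weak start site did not mean a closed gene. Foxp3 itself had 3 windows, with a highest mean of 8.93 CPM, and none within 1 kb of an annotated start. Markers of other lymphocytes were not all closed, as the start-site window of Cd8b1 was at 12.5 CPM and the strongest window of Klrb1c at 42.3 CPM. The summed level of the T cell markers was 923.3 to 948.9 CPM in R26WT libraries and 867.3 to 912.8 CPM in R26TIR1(F74G) libraries on day 7, and 912.6 to 1036 CPM against 778.3 to 940.0 CPM on day 3. It was lower in all R26TIR1(F74G) libraries on day 7, and the ranges overlapped on day 3.

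Accessibility at the start sites of the lineage genes was low. A window within 1 kb of a start site was found at 14 of the 35 genes, or 40.0%, against 56.7% of 21441 protein-coding genes. Its median level was 1.43 CPM, against 15.3 CPM over all protein-coding genes with such a window. By lineage, 5 of 10 B cell genes had a start-site window with a median of 1.34 CPM, 6 of 20 myeloid genes had one with a median of 2.35 CPM, and 3 of 5 progenitor genes had one with a median of 1.5 CPM. The highest start-site level among the 35 genes, 12.6 CPM at Cebpb, stood at percentile 43.9 of all start sites, so all 14 listed genes with such a window lay below the median start site.

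**Figure D1:**
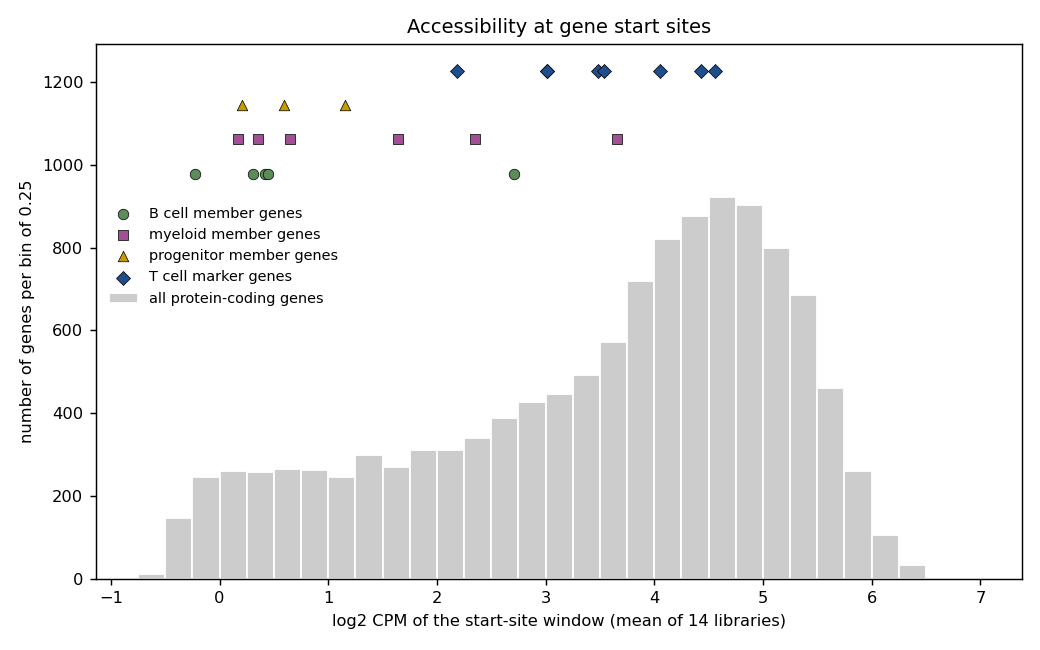
Distribution of start-site accessibility. Grey bars count protein-coding genes per bin of log2 CPM of the window nearest to the start site (mean of 14 libraries), and symbols above them mark B cell, myeloid and progenitor genes of the list and 8 T cell markers. The listed genes lie to the left, between 0.855 and 12.6 CPM, and the T cell markers lie between 4.55 and 23.5 CPM.

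Only 3 of the 14 start-site windows were the strongest window of their gene. In 11 of 30 genes the strongest window lay over 10 kb from any annotated start of the gene, and in 7 it lay within 1 kb. Windows of the listed genes had a median of 1.54 CPM, and 41.4% of them lay above the median of all windows in the table, 1.80 CPM. The share above that median was 23.1% for B cell genes, 46.3% for myeloid genes and 53.6% for progenitor genes. Summed over all of a gene's windows, 27 of 30 genes lay under the median of protein-coding genes. The exceptions were Cebpb, at percentile 91.5, Tal1, at percentile 81.6, and Ebf1, at percentile 54.8.

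To set the start-site levels beside the sequence, RefSeq promoters of build GRCm38.p6 (250 bases before to 50 bases after the start) were read for 27 of the 35 genes. Cebpb, Cr2 and Tlr2 are shown because they had the strongest start-site windows of the list, and Lyz2 and Pax5 because they are defining genes of their lineages with no window within 1 kb of a start. Capitals mark matches to the motifs searched.
Cebpb, chr2:167688665-167688964, plus strand: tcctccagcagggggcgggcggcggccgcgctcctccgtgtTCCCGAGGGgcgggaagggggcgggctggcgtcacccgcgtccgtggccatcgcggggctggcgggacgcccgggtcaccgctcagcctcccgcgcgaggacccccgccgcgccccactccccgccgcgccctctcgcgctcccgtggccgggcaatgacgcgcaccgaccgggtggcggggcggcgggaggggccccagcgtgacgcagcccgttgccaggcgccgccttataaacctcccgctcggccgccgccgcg
Cr2, chr1:195176670-195176969, minus strand: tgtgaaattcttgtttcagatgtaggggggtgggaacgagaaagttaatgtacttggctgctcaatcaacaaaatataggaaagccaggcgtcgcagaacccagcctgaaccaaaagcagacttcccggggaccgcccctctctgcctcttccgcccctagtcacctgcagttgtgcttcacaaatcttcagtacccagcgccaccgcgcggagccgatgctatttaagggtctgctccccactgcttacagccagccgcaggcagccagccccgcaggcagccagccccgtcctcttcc
Tlr2, chr3:83841559-83841858, minus strand: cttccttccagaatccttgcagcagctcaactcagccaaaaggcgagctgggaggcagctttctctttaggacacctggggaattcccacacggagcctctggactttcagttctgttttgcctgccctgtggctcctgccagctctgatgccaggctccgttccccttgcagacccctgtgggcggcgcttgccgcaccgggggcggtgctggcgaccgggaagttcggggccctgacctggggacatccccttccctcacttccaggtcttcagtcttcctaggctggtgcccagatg
Lyz2, chr10:117282223-117282522, minus strand: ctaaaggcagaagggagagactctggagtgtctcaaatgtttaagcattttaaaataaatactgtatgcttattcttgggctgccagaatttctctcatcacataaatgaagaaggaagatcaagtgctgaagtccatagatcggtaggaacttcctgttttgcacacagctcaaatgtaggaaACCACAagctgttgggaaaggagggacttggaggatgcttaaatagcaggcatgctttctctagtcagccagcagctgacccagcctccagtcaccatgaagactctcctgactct
Pax5, chr4:44710645-44710944, minus strand: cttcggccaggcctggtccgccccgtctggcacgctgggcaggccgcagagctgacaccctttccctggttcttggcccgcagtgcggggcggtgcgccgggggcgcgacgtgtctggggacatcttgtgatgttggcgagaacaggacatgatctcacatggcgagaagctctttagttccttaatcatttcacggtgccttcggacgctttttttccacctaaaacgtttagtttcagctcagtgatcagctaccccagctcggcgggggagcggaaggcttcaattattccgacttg
The Cebpb promoter held 50 CpG dinucleotides and 80.7% G and C, and 98.9% of promoters held fewer CpG. The Lyz2 promoter held 1 CpG. Pax5, with 23 CpG, and Gata2, with 32, had CpG-rich promoters without a start-site window, so a CpG-rich promoter was not always open in these cells.

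Across the list, promoters of the 11 genes that had a start-site window held a median of 11 CpG, and those of the 16 genes without one held a median of 4.5. Over all protein-coding genes the same split gave medians of 21 CpG at 9963 promoters and 3 CpG at 7529 promoters. The listed promoters as a whole had a median of 6 CpG, against 13 for all 17492 promoters. Motifs were searched on both strands. The PU.1 motif GAGGAAGT was present in 3 of 27 listed promoters (Elane, Mpo and S100a8, all myeloid), or 11.1%, against 3.17% of all promoters. The EBF1 motif CCCNNGGGA was present in 5 (Cd22, Cebpb, Gata1, Gata2 and Kit), or 18.5%, against 7.07%. The C/EBP motif TTGCNNAA was present in 5 (Bank1, Fcgr3, S100a9, Siglech and Tal1), or 18.5%, against 10.1%, and the RUNX motif TGTGGT in 6 (Ebf1, Fcer2a, Itgax, Lyz2, S100a9 and Siglech), or 22.2%, against 15.1%. The GATA motif AGATAA was present in 3 (Itgax, S100a9 and Tal1), or 11.1%, against 9.96%, and the forkhead motif TGTTTAC in 0, against 2.94% of all promoters. These motif counts are descriptions of the letters in the promoter stretches.

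Among the B cell genes, accessibility was strongest upstream of Ebf1, a transcription factor that specifies the B cell lineage. Ebf1 held 17 windows, and the strongest lay 36565 bp upstream of its start (chr11:44581435-44581636, outside the gene), at 11.1 CPM and percentile 92.1 of all windows. On day 3 this window was at 9.78, 11.8, 12.8 and 10.2 CPM in R26WT libraries and 10.97, 12.1, 8.35 and 9.01 CPM in R26TIR1(F74G) libraries. On day 7 it was at 14.2, 10.5 and 11.4 CPM and 13.2, 9.66 and 11.1 CPM, respectively. The groups overlapped on both days. The start-site window of Ebf1 was far weaker, at 1.36 CPM. It was at 1.99, 1.32, 0.956 and 0.826 CPM in R26WT and 2.16, 1.13, 1.79 and 0.885 CPM in R26TIR1(F74G) libraries on day 3, and at 1.36, 1.51 and 1.05 CPM and 1.497, 1.25 and 1.37 CPM on day 7. Pax5, the factor that maintains B cell identity, had 3 windows and none at a start site, and the strongest reached 2.76 CPM inside the gene, 6193 bp from the start.

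Cr2, which encodes the complement receptor CD21, was the B cell gene with the strongest start site. Its window at chr1:195176647-195176848 had a mean of 6.55 CPM, percentile 29.3 of start sites. Values on day 3 were 4.07, 3.64, 6.35 and 6.79 CPM in R26WT and 8.63, 6.06, 8.57 and 7.32 CPM in R26TIR1(F74G) libraries, and on day 7 they were 6.202, 7.56 and 7.198 CPM and 4.38, 6.32 and 8.65 CPM. A pair of R26WT libraries on day 3 was lowest, and the groups overlapped on both days. Cd79a and Cd79b, which encode the signalling chains of the B cell receptor, had 6 and 20 windows. The start-site window of Cd79b was at 1.34 CPM, and its strongest window, 15321 bp upstream, had a mean of 4.81 CPM. There, the values were 5.02, 3.903, 4.098 and 5.84 CPM in R26WT and 5.93, 3.92, 4.03 and 3.62 CPM in R26TIR1(F74G) libraries on day 3, and 4.46, 5.35 and 6.75 CPM and 5.83, 3.696 and 4.86 CPM on day 7, with overlapping groups.

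The other B cell genes were weak. Cd79a had no start-site window and a strongest window of 2.82 CPM. The inhibitory receptor gene Cd22 had 7 windows, none at the start, with a maximum of 2.47 CPM. Fcer2a, which encodes the low-affinity IgE receptor CD23, had 4 windows, and its start-site window was the weakest of the list, at 0.855 CPM. Blk, a Src-family kinase of the B cell receptor, had 10 windows and none at the start, and its strongest lay inside the gene at 4.30 CPM. The adaptor gene Bank1 had 7 windows, and its start-site window, at 1.24 CPM, was its strongest.

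Among the myeloid genes of the list, Cebpb stood apart. It encodes C/EBPβ, a factor of myeloid differentiation and of inflammatory responses that is not restricted to myeloid cells. Its 32 windows, in 28 stretches that do not overlap each other, summed to 133.5 CPM, which was 41.9% of the myeloid total and 21.9% of the total of all listed genes. The strongest window lay 27267 bp upstream (chr2:167661548-167661749, outside the gene), at 18.2 CPM and percentile 95.7 of all windows. The nearest start site of another protein-coding gene, Ube2v1, was 56895 bp from that of Cebpb. The start-site window, chr2:167688791-167688992, which overlaps the downstream portion of the promoter printed above but not its marked motif, was at 11.5, 13.96, 12.7 and 13.5 CPM in R26WT and 11.9, 13.04, 9.09 and 10.6 CPM in R26TIR1(F74G) libraries on day 3. On day 7 it was at 13.3, 15.2 and 11.1 CPM and 14.01, 13.6 and 13.5 CPM. A pair of R26TIR1(F74G) libraries on day 3 was lowest and the groups overlapped on both days.

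The other myeloid transcription factors of the list, Spi1 and Cebpa, were far less accessible than Cebpb. This holds within the list only. The myeloid gene Irf8, which is not in the list, had a start-site window at 22.4 CPM and a sum of 107.1 CPM. Spi1, the gene of PU.1, had 8 windows that reached 4.33 CPM, and Cebpa, the gene of C/EBPα, had 7 windows that reached 3.12 CPM at its start site. The start-site window of Spi1 was at 2.25, 1.52, 1.298 and 1.003 CPM in R26WT and 0.539, 2.25, 1.34 and 1.69 CPM in R26TIR1(F74G) libraries on day 3, and at 1.03, 1.22 and 2.099 CPM and 1.44, 2.44 and 1.87 CPM on day 7. That of Cebpa was at 3.98, 3.17, 2.53 and 2.54 CPM and 3.597, 3.06, 3.13 and 2.896 CPM on day 3, and at 4.005, 3.95 and 2.399 CPM and 2.73, 2.09 and 3.64 CPM on day 7. Neither gene separated the genotypes at its start.

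Of the receptor genes, Adgre1 and Tlr2 had the strongest windows. Adgre1, which encodes the macrophage marker F4/80, had 7 windows and none within 1 kb of its start, and the strongest lay 22730 bp upstream. It was at 7.19, 8.66, 8.81 and 9.74 CPM in R26WT and 11.9, 9.44, 8.65 and 9.97 CPM in R26TIR1(F74G) libraries on day 3, and at 8.53, 10.6 and 7.198 CPM and 10.0, 8.29 and 10.1 CPM on day 7. Tlr2, a receptor of bacterial lipoproteins that T cells can also express, had 9 of its 12 windows within 1 kb of a start. The strongest of these was at 5.19, 6.09, 5.805 and 4.01 CPM in R26WT and 5.93, 5.902, 4.62 and 5.23 CPM in R26TIR1(F74G) libraries on day 3, and at 5.43, 5.58 and 5.55 CPM and 5.03, 6.56 and 6.02 CPM on day 7. The groups of both windows overlapped on both days.

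The remaining receptors ranged lower. Cd14, a co-receptor of lipopolysaccharide, had 6 windows up to 4.48 CPM, with 1.28 CPM at the start site. The integrin genes Itgam (CD11b) and Itgax (CD11c) had 11 and 8 windows up to 1.75 and 2.21 CPM, and only Itgam had a start-site window, at 1.12 CPM. Fcgr1, which encodes a high-affinity IgG receptor, had 4 windows up to 2.23 CPM, and Clec7a, which encodes the β-glucan receptor dectin-1, had 5 up to 2.56 CPM. Siglech, a marker of plasmacytoid dendritic cells, had 3 windows up to 1.28 CPM, and Csf3r, which encodes the receptor of granulocyte colony-stimulating factor, had 1 window at 1.36 CPM, 33132 bp upstream.

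The genes of granule and secreted proteins had no start-site window at all. Mpo (myeloperoxidase) had 6 windows, all over 10 kb from a start, up to 4.10 CPM. Elane (neutrophil elastase) had 3 windows up to 3.34 CPM, S100a9 (a calcium-binding alarmin) 5 up to 4.88 CPM and Lyz2 (lysozyme) 3 up to 1.54 CPM. All 5 windows of S100a9 lay over 10 kb from its start.

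Among the progenitor genes, Tal1 had the most windows. It encodes a helix-loop-helix factor needed for blood formation, and its 32 windows summed to 90.8 CPM, with 15 within 1 kb of one of its starts. Its strongest window, 539 bp upstream of the nearest of these starts, was at 5.54, 5.75, 5.39 and 6.61 CPM in R26WT and 6.83, 5.37, 5.14 and 5.79 CPM in R26TIR1(F74G) libraries on day 3, and at 6.396, 6.45 and 4.798 CPM and 5.35, 4.89 and 5.01 CPM on day 7. The window closest to a start was lower. It was at 1.73, 2.05, 0.956 and 0.826 CPM and 1.08, 2.25, 1.64 and 1.37 CPM on day 3, and at 1.16, 1.63 and 1.95 CPM and 1.604, 1.19 and 1.62 CPM on day 7. Both windows overlapped between genotypes on both days.

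Gata1, the erythroid and megakaryocytic GATA factor on the X chromosome, had 7 windows. The strongest, 1411 bp upstream, was at 5.89, 6.42, 4.99 and 8.32 CPM in R26WT and 2.34, 4.51, 4.55 and 7.56 CPM in R26TIR1(F74G) libraries on day 3, and at 4.84, 6.803 and 6.15 CPM and 3.797, 6.08 and 4.91 CPM on day 7. The window counted as its start site, 784 bp upstream, was at 1.12, 1.19, 1.02 and 1.003 CPM and 1.26, 0.966, 0.522 and 1.45 CPM on day 3, and at 0.904, 0.989 and 1.499 CPM and 1.23, 1.37 and 1.62 CPM on day 7. The first of these windows had its lowest and its second highest value in R26TIR1(F74G) libraries of day 3, and the groups of both windows overlapped. Flt3, the receptor of a growth factor for lymphoid and myeloid progenitors, had 10 windows, all over 10 kb from its start. Its strongest lay inside the gene and was at 5.80, 4.23, 4.51 and 5.13 CPM in R26WT and 5.04, 5.74, 4.47 and 4.67 CPM in R26TIR1(F74G) libraries on day 3, and at 4.26, 5.29 and 4.95 CPM and 4.81, 3.87 and 4.502 CPM on day 7. Kit, the stem cell factor receptor, had 18 windows up to 2.44 CPM, with 2.23 CPM at the start site, and Gata2, a factor of stem and progenitor cells, had 2 windows up to 2.51 CPM and none at the start.

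**Figure D2:**
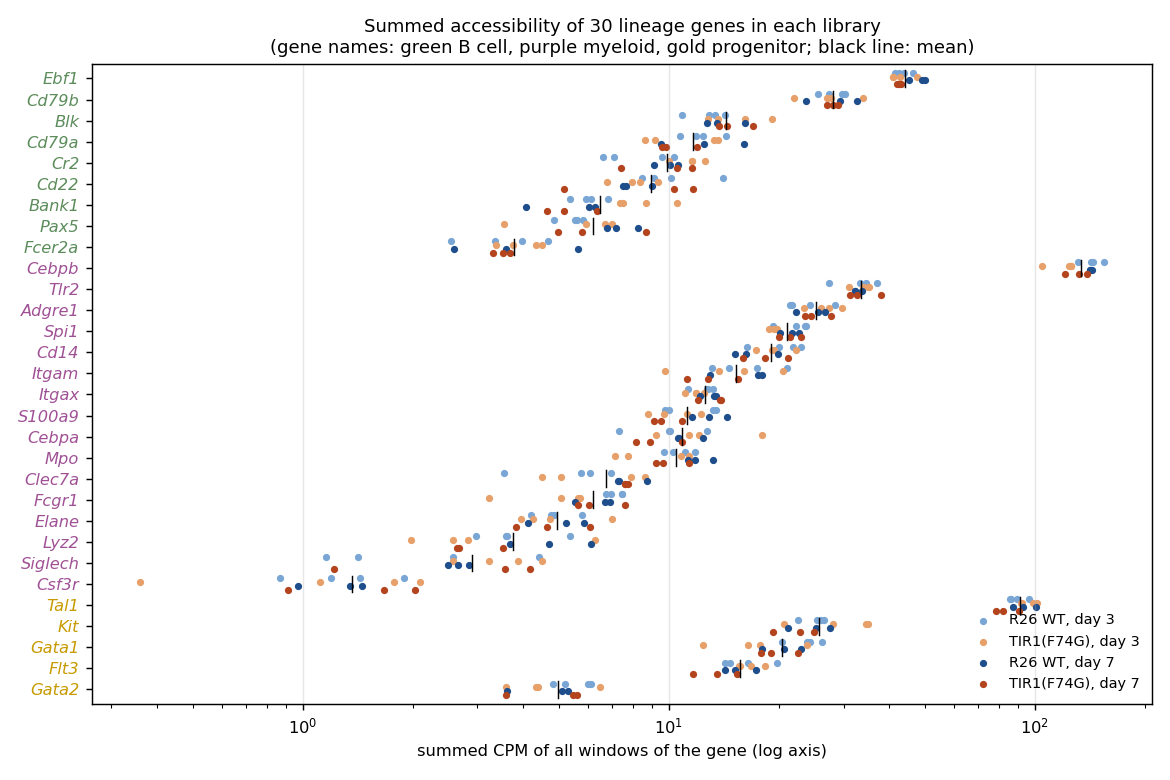
Summed accessibility of the 30 lineage genes with a window. Each point is the summed CPM of a gene in one of the 14 libraries on a log axis, coloured by genotype and day, and the black line is the mean. Cebpb (133.5 CPM) and Tal1 (90.8 CPM) lie above all other genes, and Csf3r (1.36 CPM) is lowest.

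The main question put to these genes was whether their accessibility differed between R26TIR1(F74G) and R26WT libraries, that is with and without the receptor that allows Foxp3 degradation. With edgeR's quasi-likelihood test over both days, 0 of 268 windows passed an adjusted p of 0.05, when 0.0112% of all windows did. The smallest adjusted p was 0.179. At an unadjusted p under 0.05 there were 19 windows, or 7.09%, of which 7 were higher and 12 lower in R26TIR1(F74G) libraries, against 6.73% of all windows. DESeq2 called 0 of 268 windows, against 0.0644% of all windows, with 15 at an unadjusted p under 0.05, or 5.60%, against 5.88%. It gave no adjusted p for the listed windows with the smallest p by edgeR, at Cebpb and Blk. Those windows, described below, could therefore not be called by DESeq2. The median log2 fold change was -0.06 over the listed windows and 0.00 over all windows, and 90% of the listed windows lay between -0.38 and 0.31. The groups of 7 libraries did not overlap at 1 of 268 windows, a share of 0.373%, against 0.116% of all windows. That window, 3418 bp upstream of Cebpb, is described with the others of Cebpb.

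These windows were spread over the 3 lineages. B cell genes had 4 of 78 windows at an unadjusted p under 0.05, or 5.13%, against 6.73% of all windows. All 4 were higher in R26TIR1(F74G) libraries, and they belonged to only 2 genes, Bank1 and Blk. Progenitor genes had 2 higher and 2 lower of 69, or 5.80%, and myeloid genes had 1 higher and 10 lower of 121, or 9.09%. Cebpb accounted for 6 of the 10 lower myeloid windows. Without Cebpb, 5 of 89 myeloid windows (1 higher, 4 lower), or 5.62%, had an unadjusted p under 0.05. Whether the lineages differ from each other was not tested.

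At Cebpb, 27 of 32 windows had a lower mean in R26TIR1(F74G) libraries over both days, but none passed the adjusted threshold. The smallest p values of the list belonged to overlapping windows 34872 and 34946 bp downstream of the start (chr2:167723687-167723888 and chr2:167723761-167723962, outside the gene), which share reads and are not independent. The second of them was at 4.93, 3.44, 3.14 and 2.83 CPM in R26WT and 2.88, 2.36, 2.38 and 2.57 CPM in R26TIR1(F74G) libraries on day 3. On day 7 it was at 2.33, 4.71 and 4.35 CPM and 1.82, 2.03 and 1.57 CPM. All R26TIR1(F74G) libraries lay below all R26WT libraries on day 7, and the groups overlapped narrowly on day 3. Over both days the difference was a log2 fold change -0.74, SE 0.17, adjusted p = 0.179 by edgeR.

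The overlapping neighbour was at 4.76, 2.91, 3.14 and 2.54 CPM in R26WT and 1.98, 1.93, 2.46 and 1.93 CPM in R26TIR1(F74G) libraries on day 3, and at 2.003, 3.84 and 3.15 CPM and 1.604, 1.61 and 1.67 CPM on day 7. The groups were apart on each day, and the difference over both days was a log2 fold change -0.75, SE 0.18, adjusted p = 0.196 by edgeR. The window 3418 bp upstream (chr2:167685397-167685598) was at 4.76, 4.17, 3.89 and 4.49 CPM in R26WT and 3.42, 3.06, 3.73 and 3.46 CPM in R26TIR1(F74G) libraries on day 3, and at 4.78, 4.19 and 4.199 CPM and 3.48, 2.44 and 3.59 CPM on day 7. All 7 R26TIR1(F74G) libraries lay below all 7 R26WT libraries there, with a log2 fold change -0.40, SE 0.14, adjusted p = 0.547 by edgeR. The strongest Cebpb window, 27267 bp upstream, was at 20, 15.8, 23.2 and 24.7 CPM and 22.5, 18.2, 10.5 and 13.7 CPM on day 3, and at 20.9, 18.2 and 16.3 CPM and 15.99, 15.1 and 19.5 CPM on day 7. Its groups overlapped on both days (log2 fold change -0.29, SE 0.11, adjusted p = 0.622 by edgeR).

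**Figure D3:**
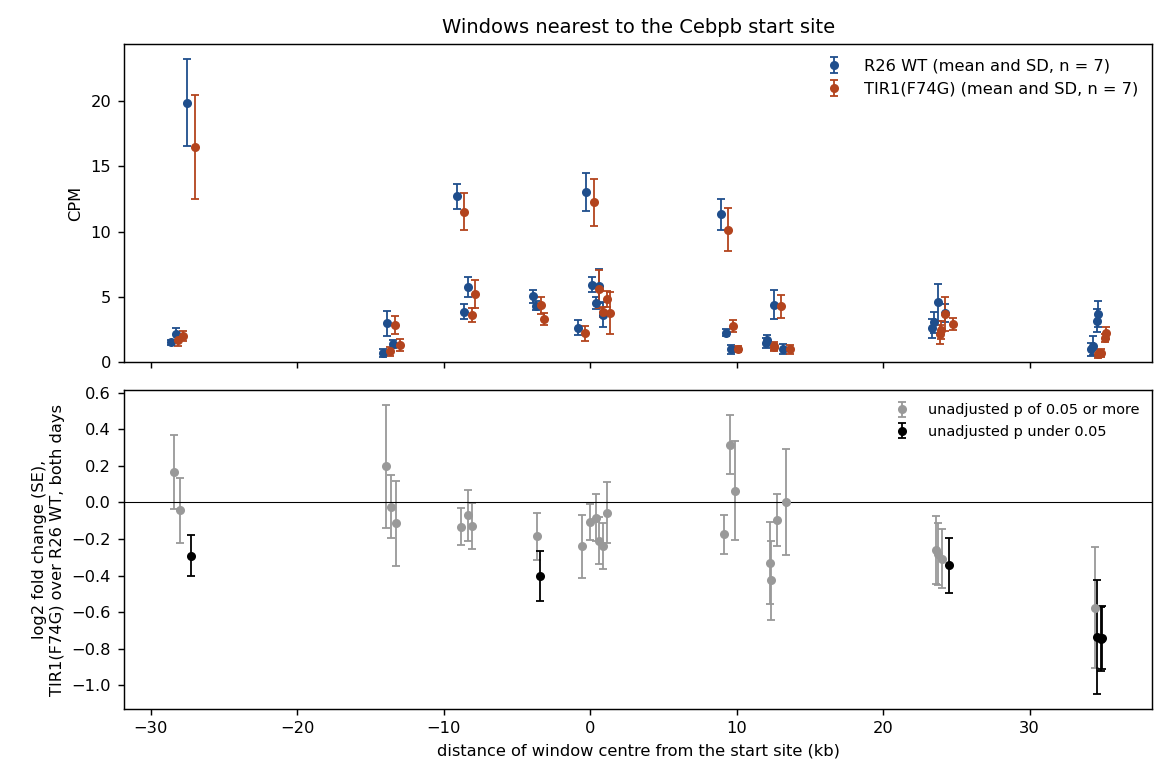
Windows assigned to Cebpb. The upper panel shows mean CPM with SD of 7 R26WT and 7 R26TIR1(F74G) libraries against distance from the start site in kb, and the lower panel the log2 fold change over both days with its SE, in black where the unadjusted p is under 0.05. Fold changes are below 0 at 27 of 32 windows and lowest 34872 and 34946 bp downstream, and no window passes the adjusted threshold.

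Of the other windows, one inside Blk had the next smallest p over both days. It was at 0.779, 0.198, 0.273 and 0.295 CPM in R26WT and 0.539, 0.805, 1.42 and 1.21 CPM in R26TIR1(F74G) libraries on day 3, and at 0.452, 0.523 and 0.5998 CPM and 0.963, 1.25 and 0.809 CPM on day 7. R26TIR1(F74G) libraries were higher on day 7 without overlap, and one R26WT library lay within the R26TIR1(F74G) range on day 3. The difference over both days was a log2 fold change 1.23, SE 0.33, adjusted p = 0.354 by edgeR. The mean level was 0.722 CPM, when the lowest window of the list was at 0.701 CPM.

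Counts were also summed over all windows of a gene. Of 30 genes, 0 passed an adjusted p of 0.05 by edgeR over both days, against 0.0256% of 15599 genes, and 2 had an unadjusted p under 0.05, against 13.1% of genes. DESeq2 called 1 of 30 genes, Cebpb, and 158 of all 15599 genes, or 1.01%, with 4 of 30 and 14% of all genes at an unadjusted p under 0.05. Cebpb sums on day 3 were 142, 131, 144 and 155 CPM in R26WT and 126, 126, 104 and 124 CPM in R26TIR1(F74G) libraries. On day 7 they were 142, 143 and 141 CPM and 132, 121 and 138 CPM. The sum was lower in R26TIR1(F74G) libraries without overlap on each day. On day 7 the groups did not overlap for 4 of 30 listed genes (Cebpb, Lyz2, S100a9 and Ebf1), against 12.5% of all genes, and on day 3 for 3 of 30 (Cebpb, Bank1 and Fcgr1), against 7.86%. Over both days edgeR gave a log2 fold change -0.16, SE 0.04, adjusted p = 0.176, whereas DESeq2 gave a log2 fold change of -0.16 and an adjusted p of 0.0279. Restricted to windows within 10 kb of the start, the edgeR difference was -0.10 (SE 0.05, adjusted p = 0.42).

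Libraries fall into the name prefixes AC and E, which the labels do not explain. On day 3, Cebpb sums of AC libraries were 131 to 144 CPM in 3 R26WT libraries and both near 126 CPM in 2 R26TIR1(F74G) libraries. Sums of E libraries were 155 CPM in 1 R26WT library and 104 and 124 CPM in 2 R26TIR1(F74G) libraries. On day 7 the AC libraries were at 141 to 143 CPM and 121 to 132 CPM, and the only E library, of genotype R26TIR1(F74G), was at 138 CPM. Where a prefix held both genotypes on a day, the R26TIR1(F74G) sums were lower, with only 1 R26WT library for prefix E. The summed level of the T cell markers moved in the same direction, as given above, and its part in the Cebpb values was not tested.

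Bank1 and Blk had the next smallest p values among gene sums over both days, with fold changes of 0.33 (SE 0.16, adjusted p = 0.38) and 0.24 (SE 0.11, adjusted p = 0.383) on the log2 scale by edgeR. Over all 30 genes the differences ranged from -0.35 to 0.43, with a median of 0.01, and 17 of 30 were above 0. By lineage, summed levels of B cell genes were 124.8 to 137.2 CPM in R26WT and 122.2 to 145.7 CPM in R26TIR1(F74G) libraries on day 3, and 121.1 to 148.1 CPM and 127.9 to 134.7 CPM on day 7. Those of myeloid genes were 315.3 to 339.3 CPM and 282.8 to 320.5 CPM on day 3, and 321.3 to 337.2 CPM and 304.2 to 322.3 CPM on day 7. Myeloid levels were mostly lower in R26TIR1(F74G) libraries, with a slight overlap on each day. Without Cebpb the myeloid genes summed to 184 to 190 CPM and 174 to 195 CPM on day 3, and 180 to 195 CPM and 176 to 184 CPM on day 7. Progenitor genes summed to 152.4 to 170.4 CPM and 156.3 to 172.7 CPM on day 3, and to 152.8 to 170.8 CPM and 142.7 to 146.2 CPM on day 7, where R26TIR1(F74G) libraries were lower without overlap. The largest part was Tal1, with day 7 means of 93.5 CPM in R26WT and 83.4 CPM in R26TIR1(F74G) libraries. Only Gata2 went the other way, at 4.67 and 4.89 CPM. Taken singly, each of the 5 progenitor genes overlapped between genotypes on day 7. Of them, 0 had an unadjusted p under 0.05 by edgeR on that day, against 7.53% of all genes. The T cell marker sum was also lower in all R26TIR1(F74G) libraries of day 7, and its part in the progenitor values was not tested.

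**Figure D4:**
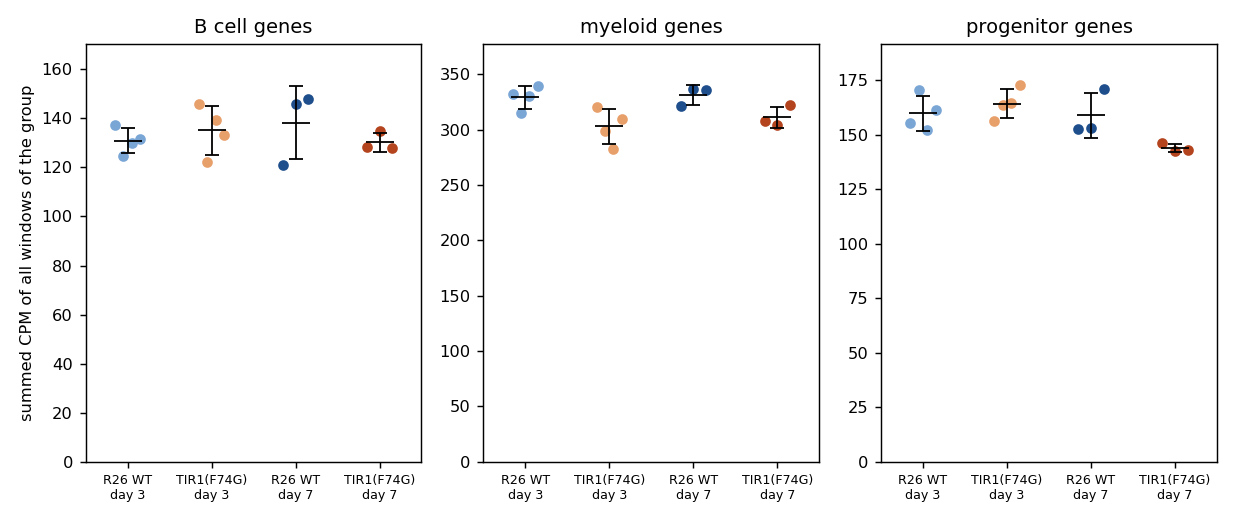
Summed accessibility of each lineage. Points are libraries, bars are means with SD (n = 4 on day 3, n = 3 on day 7), and the axes start at 0 CPM. B cell genes overlap between genotypes on both days, and progenitor genes on day 7 are at 142.7 to 146.2 CPM in R26TIR1(F74G) libraries and at 152.8 to 170.8 CPM in R26WT libraries.

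On day 7 alone, 0 of 263 windows passed an adjusted p of 0.05 by edgeR, against 0.00463% of all windows, and the smallest adjusted p was 0.327. There were 15 windows, or 5.70%, at an unadjusted p under 0.05, with 1 higher and 14 lower in R26TIR1(F74G) libraries, against 5.95% of all windows. DESeq2 called 0, as it did of all windows, with 6 at an unadjusted p under 0.05, or 2.28%, against 2.68% of all windows. Groups of 3 libraries did not overlap at 30 windows, or 11.4%, against 11.8% of all windows. The median log2 fold change was -0.12, against -0.01 over all windows.

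The Cebpb window at chr2:167723761-167723962 again had the smallest p on day 7 (log2 fold change -1.05, SE 0.26, adjusted p = 0.327 by edgeR). Without one of the R26WT libraries, the first replicate of day 7, it passed the threshold at an adjusted p of 0.0426 with a log2 fold change of -1.34, and it was the only listed window to pass in that case, when 27 of 237607 windows passed, against 11 of 237811 with all libraries. The window at chr2:167723687-167723888 followed (log2 fold change -0.87, SE 0.27, adjusted p = 0.645 by edgeR). Next was a window 3477 bp upstream of Lyz2 (chr10:117285649-117285850), at 1.36, 1.57 and 3.15 CPM in R26WT and 0.856, 0.715 and 0.911 CPM in R26TIR1(F74G) libraries on day 7. On day 3 it was at 1.39, 0.595, 0.956 and 1.298 CPM and 0.719, 0.912, 0.373 and 1.93 CPM. One R26WT library, the shallowest library of day 7, was well above the other 2, and the day 7 difference was a log2 fold change -1.15, SE 0.36, adjusted p = 0.665 by edgeR.

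Gene sums on day 7 gave 0 of 30 genes at an adjusted p of 0.05 by edgeR, against 0.0% of 15585 genes, and 2 at an unadjusted p under 0.05, against 7.53% of genes. DESeq2 also called 0, against 0.077% of genes, with 2 at an unadjusted p under 0.05, or 6.67%, against 6.63%. The sums with the smallest p were Lyz2 (log2 fold change -0.69, SE 0.29, adjusted p = 0.621), S100a9 (log2 fold change -0.38, SE 0.17, adjusted p = 0.639) and Ebf1 (log2 fold change -0.17, SE 0.08, adjusted p = 0.664), all by edgeR. For S100a9 they were 11.6, 12.9 and 14.4 CPM in R26WT and 9.52, 9.12 and 10.9 CPM in R26TIR1(F74G) libraries. For Ebf1 they were 45.2, 49.2 and 50.1 CPM and 42.5, 42.1 and 43.05 CPM. The day 7 groups of all 3 genes were apart, with the R26TIR1(F74G) libraries lower, as they were in the T cell marker sum, whose part was not tested. Those of Cebpb were apart as well, and among all genes 12.5% had day 7 groups that did not overlap.

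On day 3 alone, 0 of 256 windows passed an adjusted p of 0.05 by edgeR, as did 0.0% of all windows, and the smallest adjusted p was 0.389. There were 27 windows at an unadjusted p under 0.05, or 10.5%, with 11 higher and 16 lower in R26TIR1(F74G) libraries, against 7.55% of all windows. DESeq2 called 0, as it did of all windows, with 21 at an unadjusted p under 0.05, or 8.20%, against 4.99% of all windows. Groups of 4 libraries did not overlap at 16 windows, or 6.25%, against 4.1% of all windows, and 7 of these 16 belonged to Cebpb. The median log2 fold change was 0.02, against 0.01 over all windows.

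The smallest p on day 3 belonged to another Cebpb window, 23990 bp downstream (chr2:167712805-167713006). It was at 6.84, 3.97, 4.92 and 4.37 CPM in R26WT and 1.98, 3.06, 2.76 and 3.298 CPM in R26TIR1(F74G) libraries on day 3, without overlap (log2 fold change -0.78, SE 0.20, adjusted p = 0.389 by edgeR). On day 7 the same window was at 5.81, 3.78 and 2.55 CPM and 5.35, 4.23 and 5.21 CPM, and the groups overlapped. A window inside Gata1 (chrX:7964126-7964327) was at 5.63, 4.498, 4.78 and 4.07 CPM in R26WT and 2.88, 3.702, 3.13 and 2.81 CPM in R26TIR1(F74G) libraries (log2 fold change -0.56, SE 0.19, adjusted p = 0.522 by edgeR). Next was the start-site window of Cr2, with the values given above and a higher mean in R26TIR1(F74G) libraries (log2 fold change 0.51, SE 0.18, adjusted p = 0.522 by edgeR).

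Gene sums on day 3 gave 0 of 30 genes at an adjusted p of 0.05 by edgeR, against 0.0642% of 15588 genes, and 8 at an unadjusted p under 0.05, against 15.3% of genes. DESeq2 called 0, against 0.982% of genes, with 8 at an unadjusted p under 0.05, or 26.7%, against 15% of genes. The smallest p values were those of Cebpb (log2 fold change -0.20, SE 0.06, adjusted p = 0.177), Bank1 (log2 fold change 0.56, SE 0.19, adjusted p = 0.199) and Cr2 (log2 fold change 0.50, SE 0.17, adjusted p = 0.204), all by edgeR. Bank1 sums were 6.84, 5.36, 5.94 and 6.14 CPM in R26WT and 7.37, 7.51, 8.65 and 10.5 CPM in R26TIR1(F74G) libraries, without overlap. Cr2 sums were 7.099, 6.62, 10.3 and 9.56 CPM and 12.6, 9.98, 11.6 and 11.6 CPM, with overlap. On day 7 the groups of both genes overlapped, and Bank1 had means of 5.41 and 5.47 CPM in R26TIR1(F74G) and R26WT libraries and Cr2 had means of 9.84 and 9.91 CPM.

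**Figure D5:**
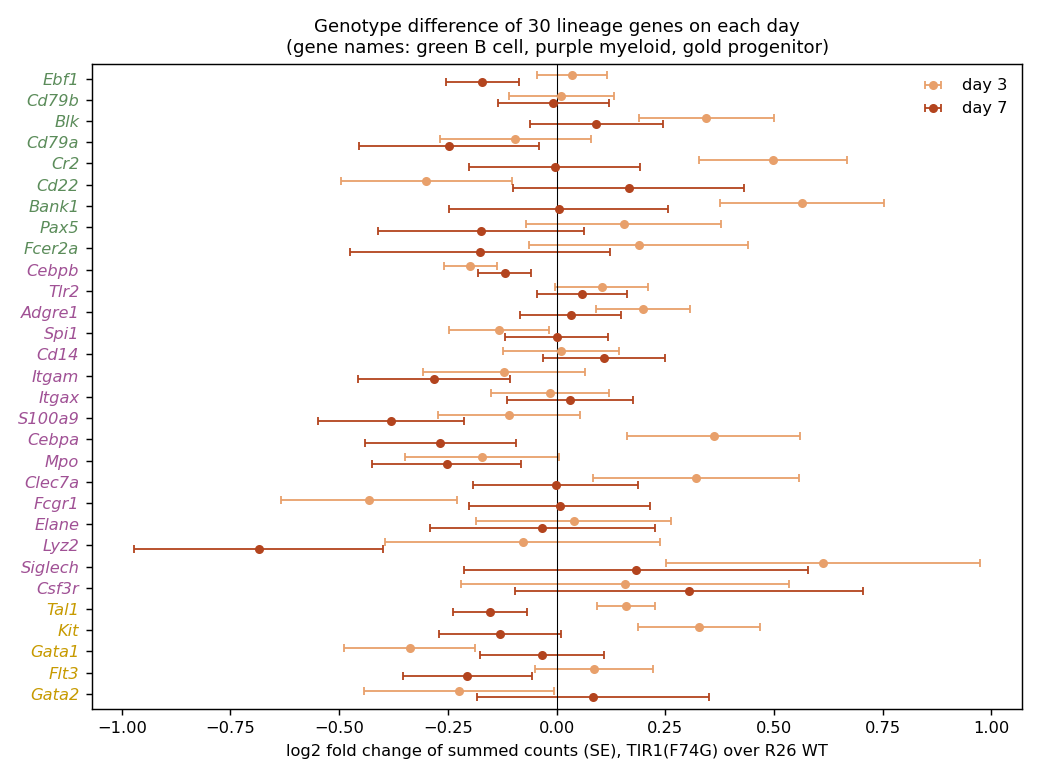
Genotype difference of each gene on day 3 and day 7. Points are log2 fold changes of summed counts (R26TIR1(F74G) over R26WT) with SE, from edgeR fits of each day. Differences range from -0.43 to 0.61 on day 3 and from -0.69 to 0.30 on day 7, and none of the 30 genes passes the adjusted threshold on either day.

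Day 7 was also compared with day 3, with genotype as a term. Handling of the days is not described in the labels, so day and handling cannot be told apart. By edgeR, 0 of 268 windows passed an adjusted p of 0.05, against 0.00332% of all windows, and 11, or 4.10%, had an unadjusted p under 0.05, against 5.47% of all windows. DESeq2 called 0, against 0.0054% of all windows, with 9 at an unadjusted p under 0.05, or 3.36%, against 4.63%. It gave no adjusted p for the window inside Kit that is named below, so that window could not be called. The 8 libraries of day 3 and the 6 of day 7 overlapped at every listed window, whereas they did not overlap at 0.0939% of all windows. For gene sums edgeR called 0 of 30 genes, against 0.0% of all genes, and 2 had an unadjusted p under 0.05, against 5.81% of genes. DESeq2 called 0 of the 30, against 0.0256% of all genes, with 1 at an unadjusted p under 0.05, against 6.28%.

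The windows with the smallest p for day were at Kit and Bank1. A window at the Kit start (chr5:75574799-75575000) was at 2.16, 2.18, 1.64 and 1.89 CPM in R26WT and 3.24, 3.11, 2.91 and 2.09 CPM in R26TIR1(F74G) libraries on day 3, and at 1.81, 1.69 and 1.799 CPM and 0.963, 2.03 and 1.52 CPM on day 7 (log2 fold change -0.56, SE 0.19, adjusted p = 0.809 for day 7 over day 3, by edgeR). A window inside Kit, 26627 bp from the start, had a log2 fold change -0.83, SE 0.32, adjusted p = 0.867, and one inside Bank1, 31890 bp from the start, a log2 fold change -0.81, SE 0.32, adjusted p = 0.88, by edgeR. These last windows were weak, at 0.791 and 0.823 CPM. Among gene sums the smallest p values were those of Bank1 (log2 fold change -0.44, SE 0.16, adjusted p = 0.857), Kit (log2 fold change -0.26, SE 0.12, adjusted p = 0.857) and Flt3 (log2 fold change -0.20, SE 0.10, adjusted p = 0.872), all lower on day 7. In day 3 R26TIR1(F74G) libraries, Kit sums were 20.7 and 28.0 CPM with the name prefix AC and 34.6 and 35 CPM with the prefix E.

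Whether the genotype difference itself changed with day was tested as an interaction. By edgeR, 0 of 268 windows passed an adjusted p of 0.05, as did 0.0% of all windows, and 22, or 8.21%, had an unadjusted p under 0.05, against 6.32% of all windows. DESeq2 called 0, as it did of all windows, with 12 at an unadjusted p under 0.05, or 4.48%, against 4.74%. The smallest p values belonged to the Cebpb window 23990 bp downstream (log2 fold change 0.99, SE 0.30, adjusted p = 0.598), a window 7968 bp upstream of Tal1 (log2 fold change -1.76, SE 0.57, adjusted p = 0.662) and one 7349 bp upstream of Cd22 (log2 fold change 1.59, SE 0.54, adjusted p = 0.672), all by edgeR. The Cd22 window was at 2.86, 2.25, 1.37 and 1.18 CPM in R26WT and 0.1798, 1.13, 1.12 and 1.13 CPM in R26TIR1(F74G) libraries on day 3, and at 0.775, 0.872 and 1.20 CPM and 1.44, 2.38 and 0.607 CPM on day 7. All R26WT libraries lay above all R26TIR1(F74G) libraries on day 3, and the groups overlapped on day 7.

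A further 26 genes of the same lineages, not in the list, were read in the same way, and 22 of them had windows, 212 in all. A start-site window was present at 13 of 26 genes, with a median of 2.25 CPM and a maximum of 22.4 CPM at the myeloid gene Irf8, percentile 65.2 of all start sites. For genotype over both days, 0 of 212 windows passed an adjusted p of 0.05 by edgeR, against 0.0112% of all windows, and the smallest was 0.205. At an unadjusted p under 0.05 there were 14 of 212 windows, or 6.60%, against 6.73% of all windows. By gene sums, 1 of 22 genes passed by edgeR, against 0.0256% of all genes. This was Pou2af1, which is named because of this value and encodes a B cell coactivator of octamer-binding factors. Its sum was higher in R26TIR1(F74G) libraries, at 43.5, 35.95, 37.1 and 38.7 CPM against 26.5, 31.5, 30.9 and 32.1 CPM in R26WT libraries on day 3 and 38.6, 41.5 and 37.9 CPM against 31.6, 30.1 and 25.9 CPM on day 7. The difference over both days was a log2 fold change 0.42, SE 0.06, adjusted p = 0.00966 by edgeR. With each day fitted alone, the adjusted p by edgeR was 0.103 on day 3 and 0.57 on day 7. The groups did not overlap on either day, as was so for 7.86% of all genes on day 3 and 12.5% on day 7. The start-site window of Pou2af1 was at 20.7 CPM, percentile 61.9 of all start sites, when the highest among listed B cell genes was 6.55 CPM at Cr2.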

How the data were processed

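ATAC-seq reads of 14 libraries were aligned by the authors with Bowtie2 to mm10 (GRCm38), peaks were called with MACS2 and merged into one atlas, and reads at peak summits were counted with featureCounts. The deposited table holds these raw counts per window, each spanning 201 bp, and positions are given as in the table. Overlapping windows share reads. The authors also ran DESeq2.

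Here, windows were assigned to the nearest protein-coding start site within 50 kb, and a start-site window is the one closest to a start within 1 kb. Counts were tested with edgeR 4.0.16 (R 4.3.3, limma 3.58.1) by quasi-likelihood, with TMM scaling, over all windows or all gene sums whose mean count reached 10, with a Benjamini-Hochberg threshold of 0.05. Fits over both days used genotype and day as terms, and each day was also fitted alone. CPM used TMM scaling over all 14 libraries. Alternatives were DESeq2 1.42.0 as test, its size factors or total counts as scaling, no count filter or one of 50, windows within 10 kb only, 1 window per overlapping run, a name prefix term, a replicate block and each library left out. Leaving out both shallowest libraries was added after seeing the data. The scripts were tested on simulated data.

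Depth ranged from 5653289 to 20184487 counts, and fewer counts give less precise CPM. No pair of replicates held identical values. Named with values were the strongest windows of the 3 highest genes of each lineage, start-site windows of lineage transcription factors, and the 3 windows and gene sums with the smallest p in each comparison. The member genes and all gene lists were chosen with earlier results of these data known. Promoters are from RefSeq.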

Additional observations from a re-analysis of the deposited data

Results flagged for a closer look

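In 48 groups of 4 libraries examined, 4 values stood far from the other 3 of their group, when chance alone marks about 1 in 20 groups, or 2.4. In day 3 R26TIR1(F74G) replicate 3, the summed level of Cebpb was 104.0 CPM against 124 to 126 CPM in the others. In the same library the Cebpb window at chr2:167723687-167723888 was at 2.46 CPM against 1.93 to 1.98 CPM, so this library was lowest in the sum and highest at that window. The Blk window at chr14:63383116-63383317 was at 0.779 CPM in day 3 R26WT replicate 1 against 0.198 to 0.295 CPM. The Cd22 window at chr7:30887591-30887792 was at 0.18 CPM in day 3 R26TIR1(F74G) replicate 1, which had the smallest total, against 1.12 to 1.13 CPM.

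The window 7968 bp upstream of Tal1 (chr4:115048358-115048559) differed in opposite directions on the 2 days. It was flagged for this pattern, so the pattern follows from the choice. All R26TIR1(F74G) libraries lay above all R26WT libraries on day 3 and below them on day 7. The interaction was -1.76 on the log2 scale. Groups were apart, in either direction, at 4.1% of all windows on day 3 and 11.8% on day 7. The share of all windows apart in opposite directions was not counted. The edgeR test of the interaction did not pass the threshold (adjusted p = 0.662).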

How the results depend on the processing

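Of 609 values recomputed under the alternatives, 605 were counted as unchanged. For counts of calls this means the same count, and for named windows and genes the same direction and side of the threshold. DESeq2 values without an adjusted p were taken as not past the threshold. No fold change of a named window or gene switched sign. The median log2 fold change of all listed windows on day 3 did, from 0.02 to -0.06 with a count filter of 50. The count of listed windows past the threshold on day 7 moved from 0 to 1 without day 7 R26WT replicate 1, and the window was that of Cebpb at chr2:167723761-167723962 (log2 fold change -1.34, adjusted p = 0.0426 by edgeR), while calls over all windows moved from 11 to 27. The count of gene sums past the threshold over both days moved from 0 to 1 with DESeq2, again at Cebpb (-0.16, adjusted p = 0.0279), while calls over all 15599 genes moved from 4 to 158. The cause was not tested in either case. Leaving out 1 library at a time gave 0 to 1 listed windows on day 7 and 0 in the other comparisons of genotype and of day, windows and gene sums alike. Neither this nor the block was run for the interaction. Both shallowest libraries were left out as an alternative chosen after seeing the data, and this gave 0 calls in each comparison over both days. The labels do not say whether replicate numbers pair the libraries. Deviations of same-numbered libraries correlated at -0.0727 to 0.0665. These values were not set against other pairs of libraries, so they cannot decide whether libraries were paired. With the replicate number as a block, 0 listed windows and 0 gene sums were called for genotype or day. At an unadjusted p under 0.05 there were 20 listed windows over both days (7.46%, against 6.05% of all windows), 14 on day 7 (5.32%, against 5.98%), 30 on day 3 (11.7%, against 6.96%) and 12 for day (4.48%, against 6.15%). Low windows rest on few reads in the shallowest libraries, which limits what can be detected there.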
